A study of Mus musculus with 18 samples.

Results

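The transcripts examined were those of 10 ligands and receptors through which macrophages stimulate or restrain T cells: Cd80, Cd86, Icosl, Cd276, Cd274, Pdcd1lg2, Cd40, Tnfsf9, Cd48 and Lgals9. They were taken by symbol from the 21954 genes of the deposited table, all 10 were found there, and all 10 were among the 12514 genes that passed the filter on low counts. The material was poly-A selected RNA of mouse macrophages grown from bone marrow, with wild type cells (labelled WT or Control) and cells labelled L13a KO, in which the gene of ribosomal protein L13a was knocked out specifically in macrophages, per the series title. Cells of each genotype received no treatment, IFN or IL4, which gives 6 groups of 3 libraries and 18 libraries in all. The labels do not give the type of interferon, the length of treatment, the strain or age of the mice, or the driver of the knockout. Whether replicate libraries stem from different mice or dishes is not stated, and the p-values therefore measure only the spread between these libraries. Each wild type group held libraries with and without Y-linked transcripts, so its libraries do not all stem from the same mouse. In knockout groups, and among wild type libraries of like sex, the spread may be technical. Libraries are named by the number in their titles, with 1 to 3 untreated, 4 to 6 given IFN and 7 to 9 given IL4 in both genotypes.

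A T cell needs a signal through its antigen receptor and a further signal from the cell that presents the antigen. Cd80 and Cd86 give that second signal through CD28 and are also bound by the inhibitory receptor CTLA-4, whereas Cd274 (PD-L1) and Pdcd1lg2 (PD-L2) restrain T cells through PD-1. Macrophages carry few of these ligands at rest, and interferon-gamma and interleukin-4 are both known to change which of them are made.

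Cd274 and Pdcd1lg2 lie side by side on chromosome 19 and share a receptor. Both transcripts were called higher with each cytokine, but Cd274 was higher with IFN than with IL4, and Pdcd1lg2 higher with IL4 than with IFN. Their promoters are shown for that reason, with that of Lgals9, which is printed because its window held matches to a motif of interferon regulatory factors. In GENCODE vM21 on GRCm38, Cd274 (ENSMUSG00000016496) spans chromosome 19 from 29367455 to 29388095 and Pdcd1lg2 (ENSMUSG00000016498) from 29410919 to 29471161, both on the plus strand with 22.8 kb between them. Lgals9 (ENSMUSG00000001123) spans chromosome 11 from 78962974 to 78984946 on the minus strand. The sequences are the 250 bases before each gene's RefSeq start site on GRCm38.p6, at chr19:29367188-29367437 (plus strand), chr19:29410669-29410918 (plus strand) and chr11:78984925-78985174 (minus strand), with capitals marking the motif matches described next.
Cd274: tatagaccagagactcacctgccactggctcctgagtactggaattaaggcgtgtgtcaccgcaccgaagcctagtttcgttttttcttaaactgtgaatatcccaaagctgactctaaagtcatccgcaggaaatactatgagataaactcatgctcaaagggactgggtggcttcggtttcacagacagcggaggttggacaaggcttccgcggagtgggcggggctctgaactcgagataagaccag
Pdcd1lg2: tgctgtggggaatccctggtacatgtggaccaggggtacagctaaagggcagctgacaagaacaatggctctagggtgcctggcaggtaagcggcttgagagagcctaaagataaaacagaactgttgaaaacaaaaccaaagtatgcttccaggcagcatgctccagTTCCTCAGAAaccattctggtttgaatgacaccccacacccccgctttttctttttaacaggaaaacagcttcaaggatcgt
Lgals9: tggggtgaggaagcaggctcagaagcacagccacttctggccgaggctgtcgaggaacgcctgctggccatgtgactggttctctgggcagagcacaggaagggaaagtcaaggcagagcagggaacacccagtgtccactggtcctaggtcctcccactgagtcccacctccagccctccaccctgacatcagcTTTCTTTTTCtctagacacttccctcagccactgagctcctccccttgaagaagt

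Promoters of 300 bases, from 250 before to 50 after the start site, were in the RefSeq table for 7 of the 10 genes (not for Cd86, Cd40 and Tnfsf9) and were searched for 4 motifs on both strands. The motif bound by STAT6, TTCNNNNGAA, which is present in 6.95% of the 32851 promoters in the table, was found once, as TTCCTCAGAA at position -82 from the start site of Pdcd1lg2. The motif of interferon regulatory factors, GAAANNGAAA, present in 3.44% of promoters, was found in the Lgals9 window on the strand opposite to the gene. Read along the gene's own strand, the matches were TTTCTTTTTC at position -55 and TTTCTGTTTC at position 15. Neither the interferon-gamma activated site TTCNNNGAA (8.3% of promoters) nor the NF-kB motif GGGNNTTTCC (1.63%) was found in the 7 windows, and Cd80, Cd274, Icosl, Cd276 and Cd48 held none of the 4. The STAT6 motif and the interferon-gamma activated site share their outer bases and differ by 1 base of spacing, and a match is a string of letters in this window, not a bound site.

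Total expected counts ran from 18098711 to 28477342 per library. Macrophage markers were high in every library, with Csf1r at 2810 to 4190 CPM (counts scaled to library size, adjusted by the trimmed mean of M-values) and Adgre1 at 1260 to 2870, while Lyz2 stood at 2881 CPM or more in the wild type libraries and at 7.12 CPM or less in the knockout ones. Rpl13a, the gene named in the labels, was present in every knockout library: 156 to 401 against 618 to 746 CPM untreated, 189 to 425 against 437 to 618 CPM after IFN, and 206 to 606 against 598 to 867 CPM after IL4, where the genotypes overlapped. Every knockout library had both the L13a KO label and this low Lyz2, and effects of the one and of the other on the ligands cannot be told apart. T cell markers summed to at most 5.62 CPM, and natural killer cell markers (5 genes) to at most 0.381 CPM outside the IFN groups. With IFN the natural killer list summed to 37.9 to 102 CPM in wild type and 34.3 to 62.8 CPM in knockout libraries. Within it Klrk1 reached 102 CPM, Klrb1c and Prf1 did not exceed 0.251 and 0.143 CPM, and Ncr1 and Gzma were at 0 in all 18 libraries. Fibroblast markers (10 genes) differed between groups, at 534 to 600 CPM in wild type untreated libraries and 57.0 to 109 after IFN. They reached 539 CPM in 1 knockout library given IL4. Markers of dividing cells (5 genes) varied widely among knockout libraries, at 189 to 790 CPM untreated, 175 to 549 after IFN and 201 to 762 after IL4. Wild type libraries held 538 to 753, 552 to 662 and 599 to 698 CPM. The part of cell division in the ligands' levels was not tested. Y-linked transcripts were present in 5 of 9 wild type and 0 of 9 knockout libraries. The 5 were untreated library 1, IFN libraries 4 and 5 and IL4 libraries 7 and 8, at 116 to 164 CPM. Untreated and cytokine-treated wild type groups thus differed in their mix of donor sex as well as in treatment. Wild type untreated libraries 2 and 3 were far closer to each other than any other replicate pair (chi-square of 6.01 per degree of freedom, against 51.6 or more). Both lacked Y-linked transcripts, and whether they share a source is not stated. If they do, the spread of that group is understated, and p-values that use it may be too small.

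Per length, Cd48 and Lgals9 were by far the most abundant of the 10 transcripts at rest. Cd48 is the ligand of the SLAM family receptor 2B4 and of CD2, and Lgals9 encodes galectin-9, a lectin bound by TIM-3. In wild type untreated cells Cd48 stood at 195 ± 43.8 TPM (transcript abundance scaled for gene length and depth, SD, n = 3) and Lgals9 at 72.2 ± 1.29 TPM, and no library of the one overlapped the other. The next 7 genes, from Icosl at 9.50 ± 2.70 TPM to Cd86 at 4.89 ± 1.11 TPM, each overlapped their neighbour in the order. Pdcd1lg2 was at 0 in all 3 libraries. Knockout cells had the same first and second gene, with Cd48 at 160 ± 49.9 TPM and Lgals9 at 63.3 ± 11.9 TPM.

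After IFN the order was led by Cd274, at 328 ± 143 TPM in wild type and 420 ± 142 TPM in knockout cells, although its libraries overlapped those of Lgals9 (187 ± 66.8 and 191 ± 93.3 TPM). Summed over the 10 genes, the level rose from 279 to 385 TPM per wild type library at rest to 675 to 988 TPM after IFN, and the share held by Cd274 went from a mean of 2.68% to 38.5%. After IL4 Cd48 led again, at 209 ± 26.8 TPM in wild type and 212 ± 52.2 TPM in knockout cells, apart from every other gene. Icosl, which ranked next after Lgals9 in untreated wild type cells, was last after IL4, at 1.47 ± 0.552 TPM, and overlapped Cd86.

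**Figure D1:**
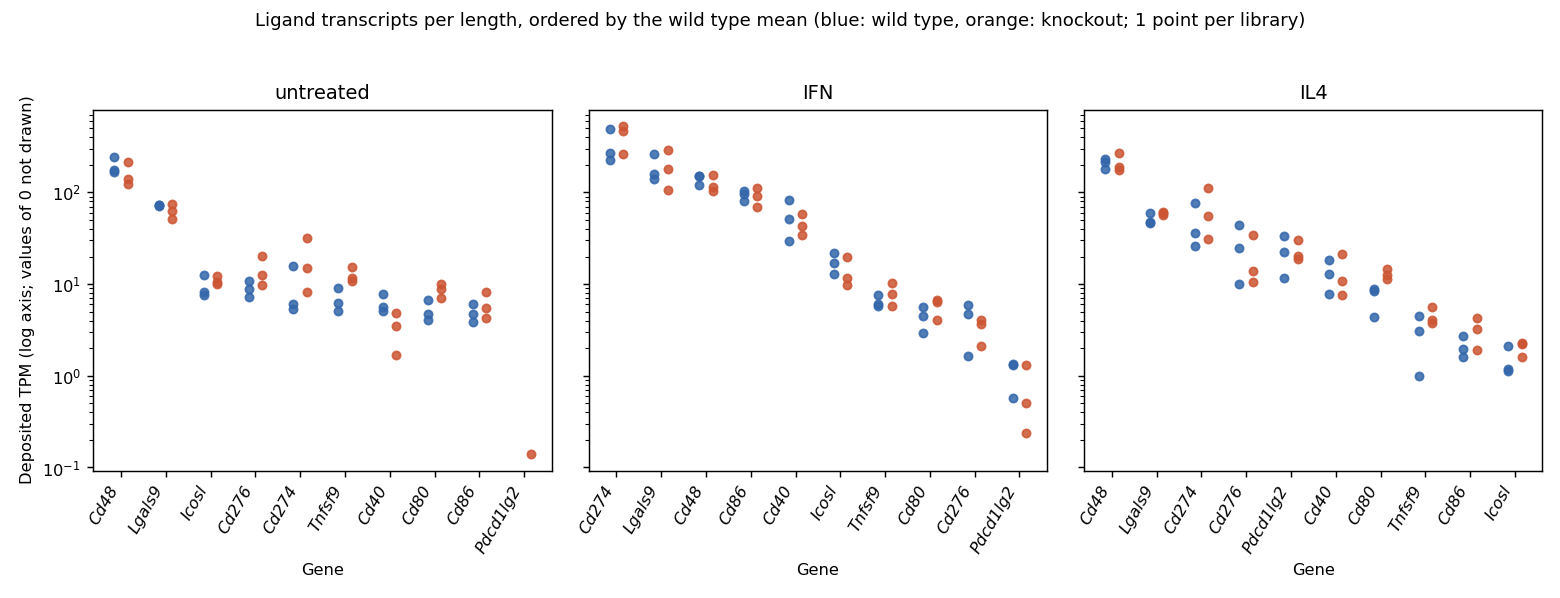
Deposited TPM (log axis) of the 10 genes in untreated, IFN-treated and IL4-treated cells, 1 point per library, with wild type in blue and knockout in orange and genes ordered by the wild type mean. Cd48 stands at the left of the untreated and IL4 panels and Cd274 at the left of the IFN panel; values of 0 are not drawn, so Pdcd1lg2 has 1 point among the untreated libraries.

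Against untreated cells, IFN raised Cd86, Cd40, Cd274, Pdcd1lg2, Icosl and Lgals9 in wild type cells, 6 of the 10, and lowered none, where 18.6% of all tested genes were called (11.1% higher, 7.55% lower) (edgeR's quasi-likelihood test with Benjamini-Hochberg adjustment, called at an adjusted p under 0.05). In knockout cells 5 rose and 1 fell, where 21.6% of all genes were called (12.6% higher, 8.93% lower). The median log2 fold change of the 10 was 1.22 in wild type and 1.33 in knockout cells, against -0.02 and -0.03 over all tested genes, and both medians were the same with Pdcd1lg2 at the bound or ratio given for it. IL4 raised 2 and lowered 2 of the 10 in wild type cells (8.49% of all genes called, 4.96% higher and 3.53% lower) and raised 3 and lowered 2 in knockout cells (9.48%, as 5.35% and 4.12%). Directly between the cytokines, 6 members were higher and 2 lower with IFN than with IL4 in wild type cells (21.1% of all genes called, 11.8% higher and 9.28% lower), and 5 and 3 in knockout cells (22.2%, as 12.4% and 9.87%). The IFN, IL4 and cross-cytokine comparisons of a genotype share libraries. In bulk RNA, a change in the share of cells that carry a transcript and a change in its amount per cell cannot be told apart.

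Cd86, which binds CD28, was low at rest and high after IFN in every library. In wild type cells it stood at 6.29, 8.16 and 5.69 CPM untreated, at 133, 116 and 173 CPM after IFN and at 2.80, 2.51 and 4.19 CPM after IL4. In knockout cells the values were 6.60, 9.68 and 5.44 CPM untreated, 110, 176 and 143 CPM after IFN and 5.33, 5.01 and 2.68 CPM after IL4. The IFN libraries were thus apart from all others in both genotypes, by 21-fold in wild type (log2 4.39, SE 0.28, adjusted p = 2.08e-08) and 20-fold in knockout cells (log2 4.32, SE 0.28, adjusted p = 2.27e-08). With IL4, Cd86 fell by 1.07 on the log2 scale in wild type cells (SE 0.32, adjusted p = 0.0468) and was -0.71 in knockout cells (adjusted p = 0.172). That wild type call was lost without untreated library 1, 2 or 3 or IL4 library 7 or 8, with an adjusted p of 0.059 to 0.186. Between the cytokines Cd86 was 44.1-fold higher with IFN in wild type and 32.7-fold in knockout cells (adjusted p = 4.45e-09 and 7.07e-09). Cd86 lies on chromosome 16 from 36603869 to 36666081 (minus strand) and Cd80 on the same chromosome from 38455561 to 38496335 (plus strand).

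Cd80, the other CD28 ligand, showed no called response to either cytokine against untreated cells. Its wild type libraries held 5.68, 4.48 and 3.85 CPM untreated, 3.99, 5.29 and 3.25 CPM after IFN and 8.19, 8.90 and 4.55 CPM after IL4. Untreated and IFN-treated libraries overlapped, with a log2 fold change of -0.16 in wild type (95% interval -0.78 to 0.47) and -0.21 in knockout cells (-0.79 to 0.37). After IL4 it was 0.62 in wild type (adjusted p = 0.205) and 0.80 in knockout cells (adjusted p = 0.0589), neither of them called. Between the cytokines it was called in knockout cells, where IFN libraries were lower than IL4 ones by -1.02 (SE 0.27, adjusted p = 0.0107 by edgeR). That call was lost without knockout IFN library 6 (adjusted p = 0.0536).

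Per length, Cd86 stood above Cd80 after IFN and below it after IL4. Cd86 TPM divided by Cd80 TPM was 0.716, 1.28 and 0.958 in the untreated wild type libraries, 21.8, 14.6 and 35.1 after IFN and 0.221, 0.19 and 0.62 after IL4. Knockout libraries gave 0.623, 0.808 and 0.592 untreated, 10.2, 17.5 and 22.9 after IFN and 0.294, 0.256 and 0.17 after IL4. The 3 treatments did not overlap in either genotype. With 3 libraries against 3 an exact permutation test cannot go below 0.1, so these ratios are given without a p.

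**Figure D2:**
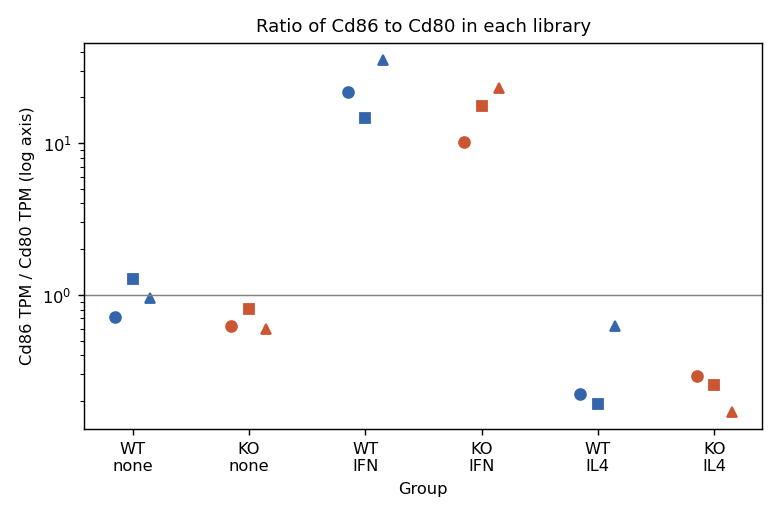
Ratio of Cd86 TPM to Cd80 TPM (log axis) in each of the 18 libraries, with wild type in blue, knockout in orange and a line at equal levels; circle, square and triangle mark the lowest, middle and highest library number of a group. IFN libraries lie between 10.2 and 35.1 and IL4 libraries between 0.17 and 0.62.

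Icosl, the ligand of ICOS on activated T cells, was lowered by IL4 in both genotypes. Its levels in wild type cells were 18.2, 12.2 and 13.3 CPM untreated, 32.8, 27.4 and 24.0 CPM after IFN and 3.28, 2.11 and 1.96 CPM after IL4. Knockout libraries held 16.2, 14.2 and 14.5 CPM untreated, 35.0, 17.2 and 20.1 CPM after IFN and 3.46, 2.69 and 3.51 CPM after IL4. Each IL4 library lay below each untreated one, with a log2 fold change of -2.57 in wild type (SE 0.30, adjusted p = 4.57e-05) and -2.22 in knockout cells (SE 0.28, adjusted p = 1.38e-04). IFN raised it 1.92-fold in wild type cells (log2 0.94, SE 0.24, adjusted p = 0.0112), and in knockout cells the log2 fold change was 0.69 (adjusted p = 0.0543). The wild type call was lost without untreated library 2 or 3 or IFN library 4, at an adjusted p of 0.0526 to 0.0634.

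Cd276 (B7-H3), a B7 relative with reported stimulating and restraining effects on T cells, was the one member called lower with IFN, in knockout cells. Wild type libraries held 19.4, 14.02 and 16.8 CPM untreated, 6.11, 11.5 and 4.09 CPM after IFN and 46.6, 93.7 and 20.9 CPM after IL4. Knockout libraries held 15.3, 32.8 and 22.0 CPM untreated, 4.66, 8.91 and 7.67 CPM after IFN and 18.6, 70.6 and 25.6 CPM after IL4. The IL4 library numbered 8 was the highest in both genotypes. Against untreated cells IFN gave a log2 fold change of -1.72 in knockout (SE 0.59, adjusted p = 0.0479) and -1.20 in wild type cells (adjusted p = 0.179), and IL4 gave 1.68 in wild type (adjusted p = 0.0665) and 0.72 in knockout cells (adjusted p = 0.487). The knockout call for IFN was lost without untreated library 2 or 3 or without any of the 3 IFN libraries, at an adjusted p of 0.0717 to 0.153. Between the cytokines the difference was called under every alternative: IFN libraries were lower by -2.87 in wild type (SE 0.59, adjusted p = 0.00193) and -2.43 in knockout cells (SE 0.59, adjusted p = 0.00631).

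**Figure D3:**
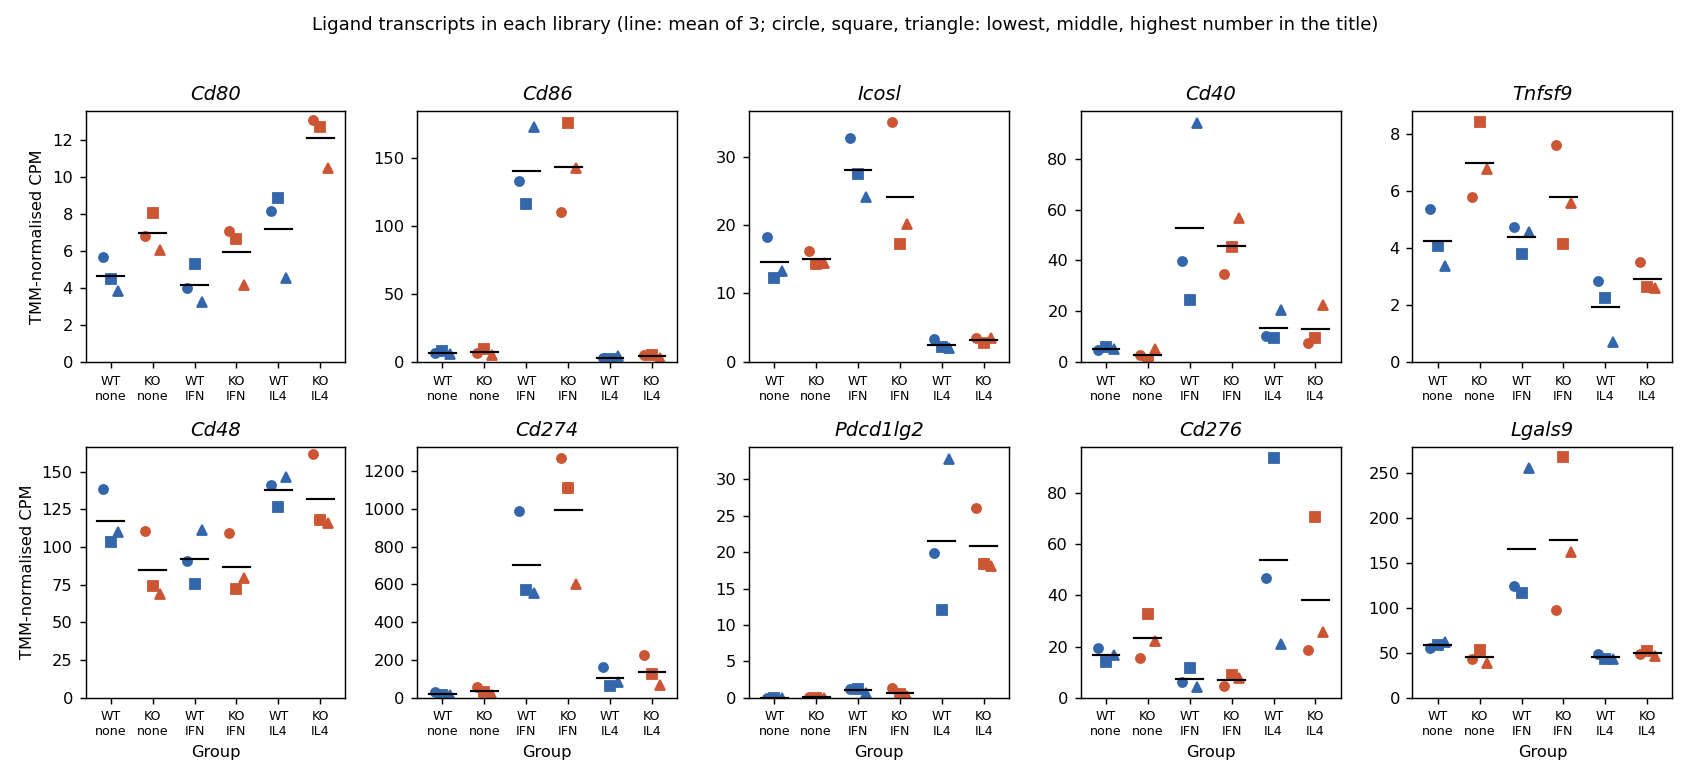
Normalised CPM of the 10 genes in each library, with wild type in blue, knockout in orange, a line at the mean of 3 libraries, and each panel on its own linear axis from 0. Cd86, Cd40, Cd274 and Lgals9 are highest in the IFN groups, Pdcd1lg2 is near 0 outside the IL4 groups, and Icosl is lowest in the IL4 groups.

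Among the PD-1 ligands, Cd274 showed the largest called rise with IFN of the members whose untreated level was above 0, and IL4 raised it less. Wild type libraries held 30.1, 11.4 and 12.9 CPM untreated, 988, 572 and 556 CPM after IFN and 160, 62.4 and 84.4 CPM after IL4. Knockout libraries held 55.2, 27.1 and 15.9 CPM untreated, 1268, 1114 and 604 CPM after IFN and 223, 125 and 65.3 CPM after IL4. The 3 treatments did not overlap in either genotype, and the library with the lowest number was the highest in all 6 groups, though no label ties libraries 1, 4 and 7 to one source. IFN raised Cd274 38.7-fold in wild type (log2 5.27, SE 0.63, adjusted p = 2.13e-05) and 30.4-fold in knockout cells (log2 4.92, SE 0.61, adjusted p = 2.83e-05). IL4 raised it 5.61-fold (log2 2.49, SE 0.56, adjusted p = 0.0107) and 4.21-fold (log2 2.07, SE 0.55, adjusted p = 0.0254). The IL4 calls were lost without wild type libraries 2, 3 or 7 (adjusted p 0.0516 to 0.061) and without knockout libraries 2, 3 or 7 (0.087 to 0.0998).

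Pdcd1lg2 was close to absent without IL4. Its expected counts were 0 in all 3 untreated wild type libraries and 3, 0 and 0 in the untreated knockout ones. After IFN it reached 1.16, 1.19 and 0.602 CPM in wild type and 1.35, 0.518 and 0.238 CPM in knockout cells. After IL4 it stood at 19.9, 12.1 and 32.9 CPM in wild type and 26.0, 18.4 and 18.1 CPM in knockout cells, so that every IL4 library lay above every other library. Against a floor of 3 counts over the 3 untreated libraries, IL4 raised it at least 600-fold and IFN at least 27.5-fold in wild type cells. The knockout ratios were 569 for IL4 (95% exact interval 194 to 2760) and 19.4 for IFN (6.18 to 98.1), intervals and floor covering counting error only. By edgeR both IL4 rises passed (adjusted p = 2.36e-06 and 4.08e-06), as did IFN in wild type (0.00914) and knockout cells (0.0457). That last call was lost without knockout library 1, 2, 3, 4 or 5, at an adjusted p of 0.0728 to 0.225.

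The ratio of the neighbouring PD-1 ligands differed between the cytokines. Per length, Cd274 exceeded Pdcd1lg2 by 206 to 393 times in wild type and 401 to 1090 times in knockout libraries given IFN, and by 1.1 to 3.44 times and 1.54 to 3.67 times with IL4. Directly compared, IFN libraries held more Cd274 than IL4 libraries (log2 2.79 in wild type, adjusted p = 0.0016, and 2.85 in knockout cells, adjusted p = 0.00125). They held less Pdcd1lg2, by -4.43 (adjusted p = 5.6e-06) and -4.85 (adjusted p = 3.95e-06).

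Cd40, the receptor through which T cell CD154 activates macrophages, was raised by IFN. Wild type libraries held 4.72, 5.86 and 5.09 CPM untreated, 39.6, 24.5 and 94.3 CPM after IFN and 10.3, 9.30 and 20.4 CPM after IL4. Knockout libraries held 2.72, 0.762 and 4.95 CPM untreated, 34.6, 45.1 and 56.8 CPM after IFN and 7.41, 9.26 and 22.4 CPM after IL4. The groups did not overlap within a genotype, and the library with the highest number was the highest in 5 of the 6 groups. IFN raised Cd40 10.1-fold in wild type (log2 3.34, SE 0.57, adjusted p = 5.9e-04) and 15.4-fold in knockout cells (log2 3.95, SE 0.60, adjusted p = 1.87e-04). With IL4 the log2 fold change was 2.14 in knockout cells (adjusted p = 0.0367) and 1.36 in wild type (adjusted p = 0.177), and the knockout call was lost without untreated library 1 or 2 or IL4 library 9, at an adjusted p of 0.107 to 0.192. IFN libraries were above IL4 ones by 1.97 in wild type (adjusted p = 0.0123) and 1.81 in knockout cells (adjusted p = 0.0199). Those calls were lost without library 6, 7 or 8 of the genotype, at an adjusted p of 0.0532 to 0.0952 and 0.0609 to 0.0833.

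Tnfsf9 (4-1BB ligand), which costimulates T cells through 4-1BB, was called lower after IL4 in knockout cells and was not called with IFN in either genotype. Wild type libraries held 5.36, 4.08 and 3.36 CPM untreated, 4.74, 3.81 and 4.58 CPM after IFN and 2.85, 2.26 and 0.714 CPM after IL4. Knockout libraries held 5.78, 8.44 and 6.79 CPM untreated, 7.61, 4.15 and 5.59 CPM after IFN and 3.50, 2.65 and 2.58 CPM after IL4. All IL4 libraries were below all others of their genotype. The IL4 log2 fold change was -1.25 in knockout (SE 0.33, adjusted p = 0.0252) and -1.14 in wild type cells (SE 0.37, adjusted p = 0.0686), and the knockout call was lost without untreated library 2 or IL4 library 8 or 9 (0.0859 to 0.0961). For IFN the 95% intervals were -0.68 to 0.73 and -0.92 to 0.39. Between the cytokines wild type Tnfsf9 was higher with IFN by 1.17 (adjusted p = 0.0383), a call lost without IFN library 4, 5 or 6 or IL4 library 8 or 9 (0.0557 to 0.156).

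Lgals9 rose with IFN, and Cd48 was called with neither cytokine against untreated cells by edgeR. Lgals9 stood at 54.9, 58.9 and 61.7 CPM in untreated wild type libraries, at 124, 117 and 256 CPM after IFN and at 48.3, 43.0 and 42.9 CPM after IL4. In knockout libraries it stood at 43.1, 53.0 and 38.5 CPM, at 98.1, 268 and 162 CPM and at 48.5, 52.4 and 46.6 CPM. IFN libraries were apart from the rest, 2.83-fold higher than untreated ones in wild type (log2 1.5, SE 0.31, adjusted p = 0.00274) and 3.93-fold in knockout cells (log2 1.98, SE 0.32, adjusted p = 2.85e-04). Cd48 ranged only from 69.0 to 162 CPM over all 18 libraries, and the largest of its 4 responses was 0.64 for IL4 in knockout cells (95% interval 0.19 to 1.09, adjusted p = 0.0725). IFN gave it -0.35 in wild type (-0.80 to 0.11) and 0.04 in knockout cells (-0.41 to 0.49).

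**Figure D4:**
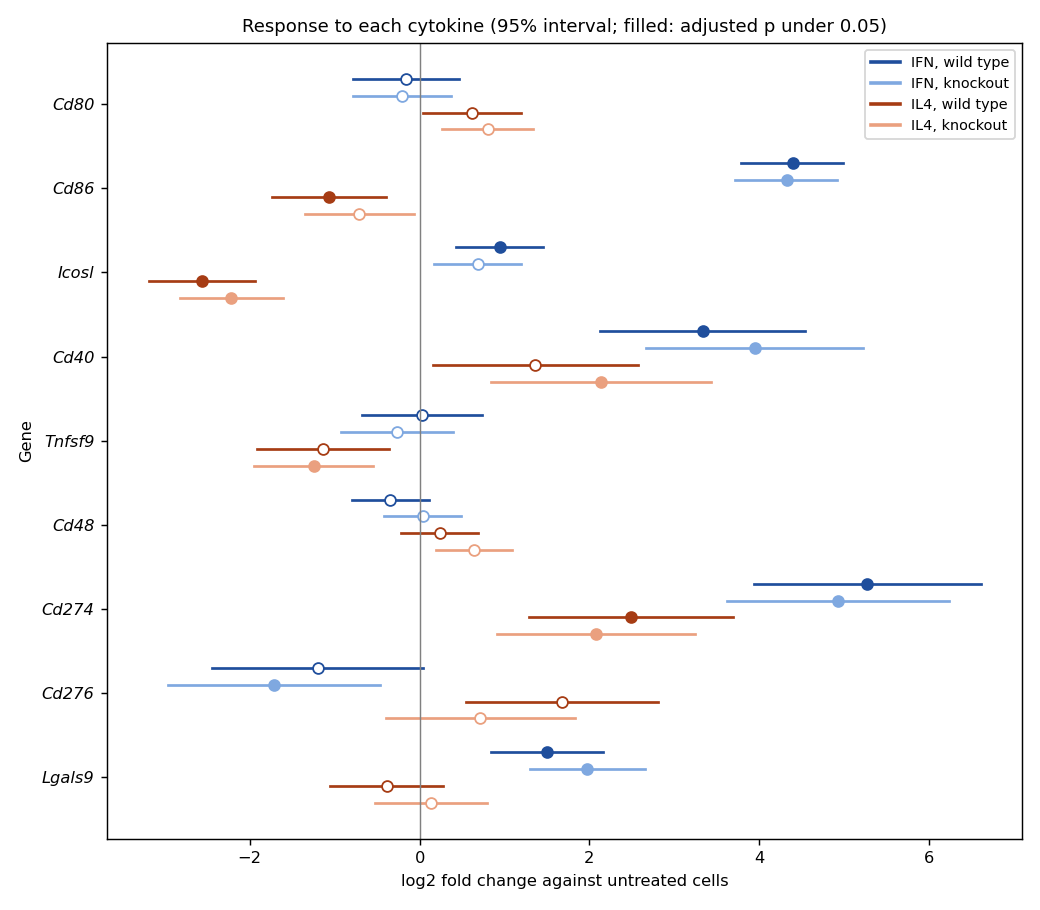
Log2 fold change against untreated cells with its 95% interval for IFN (blue) and IL4 (brown) in wild type (dark) and knockout (light) cells, filled where the adjusted p was under 0.05. Pdcd1lg2 is left out because its untreated groups hold 3 counts or fewer. Cd86, Cd40, Cd274 and Lgals9 lie to the right for IFN in both genotypes, and Icosl lies to the left for IL4.

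Of the 37 called differences among the 10 genes and 12 comparisons (120 in all), 25 were called under every alternative tried, and 12 were lost under at least 1. None of the 37 changed sign. The 25 included the rises of Cd86, Cd40, Cd274 and Lgals9 with IFN, the rise of Pdcd1lg2 with IL4 and the fall of Icosl with IL4, each in both genotypes. Fibroblast marker sums moved with treatment in wild type cells (534 to 600 CPM untreated, 139 to 275 after IL4) and overlapped between treatments in knockout cells (61.6 to 229 untreated, 23.7 to 385 after IFN, 102 to 539 after IL4). Without the library richest in these markers in each group, an alternative chosen after the data were seen, 5 members were called with IFN in wild type and 4 in knockout cells, and 2 in each genotype with IL4, against 6, 6, 4 and 5 with all libraries. That alternative also uses fewer libraries and lost most of the IL4 calls over all genes. The reason for a call lost under it was not tested. The dendritic cell list also moved: its Itgax stood at 28.5 to 106 CPM in untreated and 606 to 974 CPM in IL4-treated wild type libraries, and Clec9a at up to 0.0444 and 32.2 to 112 CPM after IFN. Xcr1 of the same list went from 0.481 to 1.11 CPM untreated to 10.4 to 15.4 CPM after IFN in wild type libraries. In knockout libraries it went from 0.191 to 0.374 CPM to 8.65 to 11.5 CPM. Zbtb46 went from 0 to 0.321 CPM untreated to 0.906 to 1.47 CPM after IL4 in wild type libraries. In knockout libraries it went from 0.165 to 0.667 CPM to 1.32 to 3.05 CPM. Flt3 stayed at or under 0.402 CPM and Siglech at or under 0.311 CPM in all libraries. The part of other cells in the ligands' responses was not tested.

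Several responses that missed the threshold passed it under an alternative, so that their side of it was not settled. Icosl with IFN in knockout cells (adjusted p = 0.0543) passed with DESeq2 (0.0494), with the Y-linked covariate (0.0344) and without IFN library 5 (0.0215). With IL4, knockout Cd80 passed with DESeq2 (0.0446) and the covariate (0.0182), and knockout Cd48 with DESeq2 (0.0372) and without untreated library 1 (0.0227). In wild type cells, Tnfsf9 with IL4 passed with DESeq2 (0.0304), the covariate (0.0303), limma on TPM (0.0444 and 0.0452) and without IL4 library 7 (0.0396), and Cd276 with DESeq2 (0.0189) and without IL4 library 9 (0.0246). With the 2 compared groups alone, wild type Cd276 passed for IFN (0.0356) and wild type Cd40 for IL4 (0.0374). Between the cytokines, Cd48 was lower with IFN by -0.58 in wild type (adjusted p = 0.0663) and -0.60 in knockout cells (0.0548), and passed with DESeq2 in both (0.0428 and 0.0318). In wild type cells it also passed with the compared groups alone (0.0399) and without library 6 (0.0437). In knockout cells it also passed with DESeq2's size factors in edgeR (0.0469), limma on TPM (0.0284 and 0.0273) and without library 4 (0.0209). Wild type Cd80 (-0.77, adjusted p = 0.0711) passed with DESeq2 (0.0389), the covariate (0.0253) and without IL4 library 9 (0.0163). Knockout Tnfsf9 (0.98, adjusted p = 0.0534) passed with DESeq2 (0.0408), the covariate (0.0368) and without IFN library 5 (0.0353).

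No member was called between knockout and wild type cells in any treatment or in the mean over the 3 treatments, where 0.0799% of genes were called untreated, 0.0639% after IFN, 0.0639% after IL4 and 0.392% in the mean (edgeR, adjusted p under 0.05). At an unadjusted p under 0.05 there were 2, 0, 1 and 2 members, where the shares of all genes were 7.54%, 5.79%, 2.46% and 10.2%. The lowest p was that of Cd80, which stood at 6.84, 8.05 and 6.07 CPM in untreated knockout libraries, at 7.09, 6.63 and 4.16 CPM after IFN and at 13.1, 12.7 and 10.5 CPM after IL4. The knockout libraries lay above the wild type ones without overlap untreated, as for 6.43% of all genes, and after IL4, as for 2.31%; no member was lower without overlap after IL4 (2.73% of genes), and none differed so after IFN (3.62% higher, 5.71% lower). The mean difference was 0.61 on the log2 scale (95% interval 0.27 to 0.95), with an adjusted p of 0.14 that ran from 0.0206 to 0.288 over the alternatives. DESeq2 called it (0.0206), as did edgeR with the replicate number as a block (0.0305) and with a covariate for Y-linked transcripts (0.0228). With that covariate, which marks 5 wild type and 0 of the 9 knockout libraries, the difference was 0.998.

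Tnfsf9 was the other member with a low p in the mean over treatments, at 0.56 (95% interval 0.14 to 0.99, adjusted p = 0.308), and its untreated knockout libraries lay above the wild type ones. In untreated cells the difference for Cd48 was -0.47 (95% interval -0.92 to -0.02, adjusted p = 0.639), with overlapping libraries. For Lgals9 the untreated knockout libraries lay below the wild type ones without overlap. Of all genes, 7.66% were lower without overlap in untreated knockout cells. For Cd274 the mean difference was 0.59 (95% interval -0.06 to 1.24), for Cd86 0.19 (-0.16 to 0.55) and for Icosl 0.07 (-0.27 to 0.41). Cd40 (-0.36, interval -1.04 to 0.33) and Cd276 (-0.02, interval -0.71 to 0.67) were less precisely measured.

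**Figure D5:**
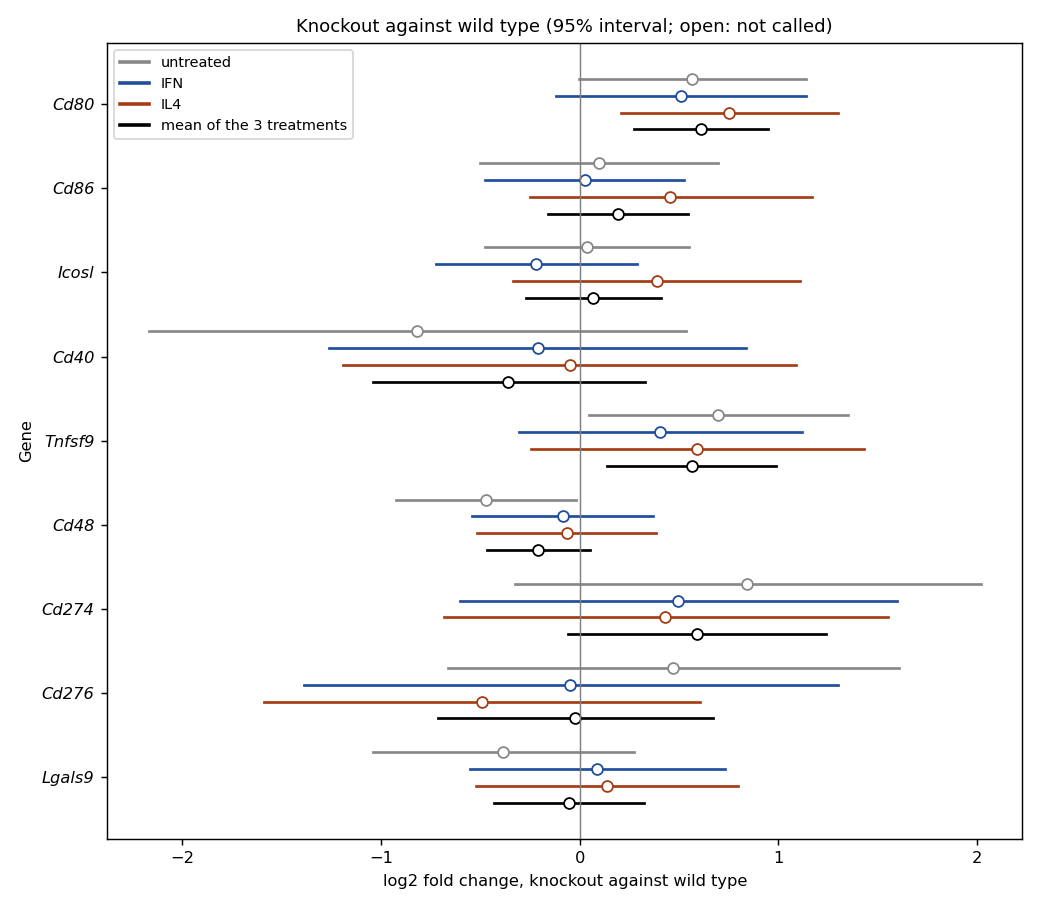
Log2 fold change of knockout against wild type cells with its 95% interval, untreated (grey), after IFN (blue), after IL4 (brown) and as the mean of the 3 treatments (black). All points are open because none was called, and the mean interval lies above 0 for Cd80 and Tnfsf9. Pdcd1lg2 is left out because its untreated groups hold 3 counts or fewer.

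The responses themselves were compared between genotypes. For both cytokines 0 of the 10 members and 0% of all genes were called by edgeR, with 0 members at an unadjusted p under 0.05 (4.93% of all genes for IFN and 1.99% for IL4), while DESeq2 called 26 genes for IFN and 1 for IL4, none of them a member. The IFN response of Cd86 differed by -0.07 between knockout and wild type cells (95% interval -0.85 to 0.71) and that of Cd274 by -0.35 (-1.95 to 1.25). For Icosl the difference in the IL4 response was 0.35 (-0.54 to 1.24). In simulated data of the same size, 50% of differences of 4-fold between IFN responses and 11.3% of those of 2-fold were recovered. Those data gave every group the same profile, apart from 200 genes drawn at random and changed in a single group, and so held no IFN response. At such rates a difference of 2-fold would mostly not be detectable, though no rate was obtained for the members' own levels and spread.

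Genes around the ligands were counted from lists named by function. Of all tested genes, 18.6% were called with IFN in wild type and 21.6% in knockout cells. With IL4 the shares were 8.49% and 9.48%. The counts of each list here and below are to be read beside these shares, and no list was tested as a set. Of 20 tested genes of interferon-gamma and IL4 signalling, 15 rose and 0 fell with IFN in each genotype. They included Irf1, an interferon-induced transcription factor (36.36 ± 7.28 to 749.8 ± 70.8 CPM in wild type, log2 4.36, adjusted p = 6.4e-07 by edgeR), and the feedback inhibitor Socs1 (log2 7.30 in wild type and 7.28 in knockout cells). With IL4, 5 rose and 1 fell in wild type and 5 rose and 2 fell in knockout cells. Cish (log2 6.38 and 5.89), Socs1 (5.06 and 5.04) and Irf4 (4.23 and 3.90), a transcription factor of the IL4 state, led in both genotypes.

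Of 8 tested SLAM family genes and CD2 relatives, the family of Cd48 and its receptor, 5 rose with IFN in wild type and 4 in knockout cells, and none fell. Slamf8 went from 2.80 ± 1.41 to 257.1 ± 107 CPM in wild type cells (log2 6.49, adjusted p = 1.07e-07 by edgeR) and from 2.99 ± 0.908 to 320.2 ± 27.1 CPM in knockout cells (log2 6.71, adjusted p = 7.12e-08). Slamf9 (log2 3.40 and 3.77) and Slamf7 (2.61 and 2.56) rose too, while Cd48 itself was not called. Slamf8 was also called higher with IL4, by 1.795 in wild type and 1.714 in knockout cells (adjusted p = 0.0219 and 0.0258 by edgeR). Of 10 tested ligands of the TNF superfamily, to which Tnfsf9 belongs, 4 rose with IFN in wild type and 5 in knockout cells. Tnfsf10 (TRAIL) had log2 fold changes of 5.70 and 7.03, Tnfsf13b (BAFF) 3.25 and 4.46, and Tnf 1.93 and 1.5. With IL4, 1 of the 10 rose and 2 fell in wild type cells, and 0 rose and 2 fell in knockout cells. Tnf fell by 1.61 in wild type (adjusted p = 7.01e-04) and by 1.98 in knockout cells (1.24e-04). Tnfsf14 (LIGHT), which binds HVEM, fell by 2.08 and 2.51, calls that were lost without the most fibroblast-marked libraries (0.111 and 0.0733). Tnfsf12 (TWEAK) rose by 0.86 in wild type cells (adjusted p = 0.0459), a call lost without untreated library 2 or 3 or IL4 library 7 or 8 (0.06 to 0.279).

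Among 18 other regulatory genes (ligands, adhesion molecules, enzymes and a receptor), 6 rose and 1 fell with IFN in wild type and 6 rose and 3 fell in knockout cells. H2-T23 (Qa-1), which engages NKG2A, rose by 3.12 and 3.52 on the log2 scale, and Icam1, the ligand of LFA-1, by 1.81 and 1.98. With IL4 1 gene of this list rose in each genotype, Cd24a (1.45 and 1.49), and both calls were lost without the most fibroblast-marked libraries (adjusted p 0.183 and 0.15), as were most IL4 calls over all genes. Of 4 tested galectins, Lgals8 rose with IFN (0.99 and 0.85) and Lgals3 with IL4 (1.24 and 1.14), both in wild type and knockout cells. The knockout Lgals8 call was lost without untreated library 3 or IFN library 4 or 5, at an adjusted p of 0.0595 to 0.0797, and the Lgals3 calls without the most fibroblast-marked libraries (0.0666 and 0.092 at most).

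Some receptors that T cells use for these ligands were also read in the macrophage libraries. Cd28, the receptor of Cd80 and Cd86, stood at 89.2, 68.3 and 73.1 CPM in untreated wild type libraries and at 19.6, 18.01 and 8.37 CPM after IFN, while the T cell gene Cd3e did not exceed 0.898 CPM in any library. The fall was -2.32 in wild type (SE 0.35, adjusted p = 1.78e-04) and -2.81 in knockout cells (SE 0.36, adjusted p = 3.18e-05), opposite in direction to Cd86. Rgmb, a binding partner of PD-L2, rose with IFN by 1.05 and 1.06, the knockout call being lost without the most fibroblast-marked libraries (0.0599). Over the 6 tested genes of this list 3 rose and 2 fell with IFN in wild type, and 1 rose and 2 fell in knockout cells. Tnfrsf9 (4-1BB), the receptor of Tnfsf9, was among those that fell in each genotype (log2 -2.96 in knockout cells, adjusted p = 0.00703 by edgeR). With IL4 its log2 fold change was -3.71 in wild type (adjusted p = 0.00379) and -4.02 in knockout cells (0.00354). Its untreated means were low, at 2.48 and 2.21 CPM.

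Of 13 adaptors of CD40 and genes of ligand turnover, 2 rose and 1 fell with IFN in wild type cells, and 2 rose and 3 fell in knockout cells. Of all tested genes 11.1% rose and 7.55% fell in wild type cells, and 12.6% and 8.93% in knockout cells. Cmtm4, whose protein stabilises PD-L1, fell with IFN by 0.50 in wild type (adjusted p = 0.00453, and 0.0708 without the most fibroblast-marked libraries) and by 0.77 in knockout cells (1.14e-04), and thus moved against Cd274. Cmtm6 of the same list was not called with IFN, at 0.47 in wild type (adjusted p = 0.0695 by edgeR) and 0.34 in knockout cells (0.19). March1, a ubiquitin ligase that removes CD86 from the surface, rose by 1.23 in wild type and 1.08 in knockout cells, together with Cd86. The knockout call for March1 was lost without untreated library 3 (0.0615) or IFN library 5 (0.0538). With IL4, Traf5, an adaptor of CD40, rose by 1.93 and 1.66, while 3 genes of this list fell in wild type and 5 in knockout cells, among them Relb in wild type (-1.10, adjusted p = 0.0134) and Nfkb2 in knockout cells (-1.05, adjusted p = 0.00308). The Relb call was lost without IL4 library 7 or 8 (0.0581 to 0.0748). Cmtm4 was lower with IL4 as well as with IFN, at -0.477 in wild type (adjusted p = 0.0119 by edgeR) and -0.557 in knockout cells (0.00427).

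In the mean genotype difference over treatments, 1 of 10 TNF superfamily ligands and 1 of 18 other regulatory genes were called, both higher in knockout cells. Of all tested genes 0.392% were called in that comparison. Tnfsf4 (OX40 ligand), which costimulates T cells through OX40, ran from 0 to 0.99 CPM in wild type and from 0.363 to 4.10 CPM in knockout libraries (log2 2.10, SE 0.44, adjusted p = 0.0432). Cd24a, a ligand of Siglec receptors, ran from 1.505 to 28.9 CPM in wild type and from 5.94 to 47.0 CPM in knockout libraries (log2 0.94, SE 0.18, adjusted p = 0.0342). Neither call was settled: that for Tnfsf4 was lost in 15 of the 18 fits that left out 1 library (adjusted p 0.0682 to 0.135) and that for Cd24a in 10 (0.0524 to 0.0915).

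For each member, genes with the most similar log2 CPM over the 18 libraries were taken from the 9455 genes averaging 5 CPM or more, as a description with no test, since all libraries share the same treatments. Nearest to Cd86 were Slco3a1 (Pearson r = 0.992) and Gbp4 (0.989), and nearest to Lgals9 were March5 (0.979), Cfb (0.978) and Daxx (0.977). Cd274 was nearest to Lair1 (0.974), Hk3 (0.965) and Rhbdf2 (0.963), and its neighbour Pdcd1lg2 to Slc7a2 (0.974), Gna15 (0.97) and Cish (0.963). Cd40 had Arf4 (0.965), Rhoh (0.963) and Gng11 (0.95), and Icosl had Nlrp3 (0.964), Fam102a (0.959) and Itpr3 (0.958). Cd276 lay closest to Rhob (0.938), Tacc2 (0.938) and Stap1 (0.933). The members that moved least had looser neighbours: Cd80 had Ddx27 (0.892), Ephx1 (0.884) and Fbxl2 (0.881), Cd48 had Sat1 (0.868), Arhgap9 (0.858) and Zfp385a (0.842), and Tnfsf9 had Cdc42bpg (0.851), Cxcr3 (0.842) and Dok3 (0.837).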

How the data were processed

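Per the labels' protocols, poly-A RNA of bone marrow derived macrophages was made into libraries and sequenced on Illumina instruments. Bowtie 0.12.8, RSEM 1.2.3 and the mm10 build are named in the submitters' processing notes, and the annotation is not given in the sources used here. The authors deposited expected counts per gene and TPM per gene, and 0 columns of values were left without a sample. Of the expected counts 21.5% were not whole; all were rounded. After filterByExpr and TMM scaling, a single edgeR 4.0.16 model (R 4.3.3, quasi-likelihood, robust, legacy set to false) held a term for each of the 6 groups, and p-values were adjusted over all 12514 tested genes (Benjamini-Hochberg). The deposited TPM values were used to compare levels between genes.

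Alternatives were DESeq2 1.42.0, its size factors in edgeR, no filter, limma 3.58.1 on log2 of TPM plus 1 or 0.1, the compared groups alone, a Y-linked covariate, the replicate number as a block, and each library left out in turn. Up to 3 called genes per list and comparison could be named, those with the lowest adjusted p, with the 3 genes most alike each member; 1 gene that this rule names is not reported here. The members and lists were chosen with earlier results of these data known. The fit was tested on simulated data with the same profile in every group, apart from 200 random genes changed in a single group. For IFN against untreated wild type cells, 44.4% of 2-fold and 70.8% of 4-fold changes were recovered (6 false calls). For untreated knockout against wild type cells the rates were 35.2% and 80.6% (8 false calls). Intervals for counts cover counting error only.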

Additional observations from a re-analysis of the deposited data

How the results depend on the processing

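Of the 37 called differences of the 10 genes, 25 kept their call under every alternative and 0 changed sign; of the 65 differences that no setting called and whose p was 0.05 or more, 34 changed sign under some alternative. IL4 calls were the least settled. In knockout cells 5 members became 2 with the compared groups alone and 2 without the most fibroblast-marked library of each group, and in wild type cells 4 became 2 without those libraries. Leaving out 1 library at a time gave 2 to 5 members for IL4 in each genotype, 5 to 6 for IFN in wild type and 4 to 5 in knockout cells, 6 to 8 and 6 to 9 between the cytokines, and 0 to 0 for the comparisons of genotypes and of responses. These alternatives use fewer libraries, and the cause was otherwise not tested. In the mean genotype difference 0 members became 1, Cd80, with DESeq2, with the Y-linked covariate and with the replicate block (1 each). Samples sharing a number deviated together in IL4-treated cells (correlations 0.702, 0.561 and 0.475 across 9712 genes, which are not independent) and less evenly in untreated (0.746, 0.0725 and 0.573) and IFN-treated cells (0.371, 0.0356 and 0.265), so the number pairs the IL4 libraries only as a hint from the data. The block changed no other member's call in the comparisons of genotypes and responses.

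Over all genes, knockout against wild type untreated gave 10 calls, against 82 with DESeq2, 39 with the Y-linked covariate, 96 with the replicate block, 4 with edgeR's legacy method, 3 without the fibroblast-marked libraries and 1 with the 2 groups alone. After IFN 8 became 41, 5, 24, 1 and 1 with DESeq2, the covariate, the block, the fibroblast alternative and the groups alone, and after IL4 8 became 29, 3, 27, 1 and 1. The mean gave 49, against 196, 246 and 109 with DESeq2, the block and the fibroblast alternative. That last alternative took the IFN calls from 2332 to 1482 and 2697 to 1505 in wild type and knockout cells, the IL4 calls from 1063 to 353 and 1186 to 270, and those between cytokines from 2638 to 1687 and 2784 to 1699. With the groups alone the knockout counts were 392 for IL4 and 1780 between cytokines. The legacy and fibroblast alternatives were chosen after seeing the data, and the groups alone were not run for the mean, which uses every library. Wild type untreated libraries 2 and 3 differed by a chi-square of 6.01 per degree of freedom, against 51.6 or more for other replicate pairs, and were kept separate.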
